A study of Rattus norvegicus with 47 samples.

Results

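The genes described here are 9 that make or remove superoxide in blood cells: Cybb, Cyba, Ncf1, Ncf4 and Rac2, which encode parts of the phagocyte NADPH oxidase, and Sod1, Sod2, Cat and Gpx1, which encode enzymes that dispose of superoxide and hydrogen peroxide. They were picked by gene symbol for their function, with no threshold on their values, although earlier results of these data were known when they were picked, and each was represented by 1 probe set, so that 9 of 27596 probe sets on the array, 21406 of them with a symbol, are described. The blood came from 8 male spontaneously hypertensive (SHR) rats aged 16 weeks. It was drawn at 0 h (immediately before anaesthesia) and at 1, 2, 3, 6 and 24 h post MCA occlusion. In this procedure a thread was passed through the internal carotid artery to block the middle cerebral artery (MCA) and cause an ischaemic stroke. The occlusion was transient. Flow was restored between the 1 h and 2 h samples by withdrawing the thread, again under anaesthesia. RNA from the pelleted cells of whole blood was hybridised to 47 arrays, with 7 at 6 h and 8 at every other time. Every group was thus the same SHR rats, all operated on under anaesthetic, and there was no sham-operated, female or normotensive group. Blood was taken from the tail vein at 0 to 6 h. At 24 h it was taken by heart puncture, right after an anaesthetic overdose. At 24 h the time, the site of sampling and the overdose thus cannot be told apart. At every time point stroke, surgery, anaesthetic and repeated bleeding cannot be told apart, and from 2 h on reperfusion is added to these.

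The phagocyte NADPH oxidase is an enzyme of neutrophils, monocytes and macrophages that moves electrons from NADPH across a membrane onto oxygen to make superoxide. Its catalytic core is a pair of membrane proteins, gp91phox (Cybb) and p22phox (Cyba). The core is silent until cytosolic proteins, among them p47phox (Ncf1) and p40phox (Ncf4), dock on it together with the small GTPase Rac2. Superoxide is turned into hydrogen peroxide by superoxide dismutases, of which Sod1 works in the cytosol and Sod2 in mitochondria, and hydrogen peroxide is then broken down by catalase (Cat) and glutathione peroxidase 1 (Gpx1). Catalase and glutathione peroxidase are also major proteins of red cells.

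The sequence just upstream of the transcription start is shown for 4 of the genes, a subunit that fell at 1, 2, 6 and 24 h (Cybb), a subunit that rose (Ncf1), and the pair of dismutases that moved in opposite directions (Sod1 and Sod2). Each is the 250 bases upstream of the RefSeq start on build GRCr8, written 5′ to 3′ in the direction of transcription, and RefSeq promoter sequence was matched for 7 of the 9 genes. Capitals mark matches, on either strand, to 5 short motifs: GAGGAA (the core bound by PU.1, a myeloid transcription factor), GGGCGG (the GC box), CCAAT (the CCAAT box), TATAAA (the TATA box) and TGACNNNGC (the core of the antioxidant response element bound by Nrf2). No matches to different motifs overlapped in these 4 windows.

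Cybb, chrX:16065066-16065315, minus strand:
Cybb: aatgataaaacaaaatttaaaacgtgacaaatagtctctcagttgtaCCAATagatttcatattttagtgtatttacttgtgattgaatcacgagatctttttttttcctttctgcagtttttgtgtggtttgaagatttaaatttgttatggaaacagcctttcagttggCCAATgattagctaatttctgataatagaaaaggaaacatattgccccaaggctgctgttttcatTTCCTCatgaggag
Ncf1, chr12:28121635-28121884, plus strand:
Ncf1: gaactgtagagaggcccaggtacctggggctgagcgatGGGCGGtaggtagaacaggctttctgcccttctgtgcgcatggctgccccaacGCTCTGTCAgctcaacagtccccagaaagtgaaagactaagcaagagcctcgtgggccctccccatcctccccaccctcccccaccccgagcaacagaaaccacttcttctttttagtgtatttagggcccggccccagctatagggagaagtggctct
Sod1, chr11:42942573-42942822, plus strand:
Sod1: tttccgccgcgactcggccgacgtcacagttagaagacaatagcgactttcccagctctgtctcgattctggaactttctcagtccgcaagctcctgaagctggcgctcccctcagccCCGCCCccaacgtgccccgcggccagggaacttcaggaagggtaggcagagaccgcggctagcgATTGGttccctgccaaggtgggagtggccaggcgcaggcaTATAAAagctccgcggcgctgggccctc
Sod2, chr1:50050169-50050418, minus strand:
Sod2: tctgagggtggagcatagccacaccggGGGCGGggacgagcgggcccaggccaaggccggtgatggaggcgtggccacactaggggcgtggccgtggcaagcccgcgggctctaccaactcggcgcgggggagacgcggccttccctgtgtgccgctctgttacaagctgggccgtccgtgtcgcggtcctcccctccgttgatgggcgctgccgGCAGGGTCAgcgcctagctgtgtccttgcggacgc

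In Cybb the PU.1 core lay on the opposite strand, 14 to 9 bases before the start, and CCAAT lay on the same strand 79 to 75 and 203 to 199 bases before it. Ncf1 held a GC box 212 to 207 bases and an antioxidant response element core, on the opposite strand, 159 to 151 bases before its start. Sod1 held a TATA box 28 to 23 bases, an opposite-strand CCAAT 68 to 64 bases and an opposite-strand GC box 132 to 127 bases before its start. Sod2 held an opposite-strand antioxidant response element core 35 to 27 bases and a GC box 223 to 218 bases before its start. These motifs are common. Of 33469 promoter windows of this length, 23.3% held GAGGAA, 30.5% GGGCGG, 34.0% CCAAT, 12.9% TATAAA and 10.1% TGACNNNGC. The base composition of the windows differed more plainly, from 32.0% G and C in Cybb to 58.4% in Ncf1, 63.2% in Sod1 and 71.6% in Sod2. The matches describe letters in a window, and no binding was measured.

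mRNA expression is given as the log2 RMA signal of the array, as the authors' mean and deposited SD over the arrays of a time point. Each probe set summarises probes along the whole transcript of a gene, and its position is given on rat build rn5, the build of the array's annotation, not that of the sequences above. Values of single arrays were not used here, so spread is shown by those SDs and not by the range of the rats. A difference of 1 on this scale is a doubling, and levels of different probe sets are not compared. Changes were tested with limma's moderated test computed from the means and SDs, with Benjamini-Hochberg adjustment over all 27596 probe sets of each comparison, and a gene is called higher or lower where the adjusted p (FDR) was below 0.05. The 5 comparisons with 0 h share the 0 h samples. Blood is a mixture of cells, and in such bulk samples fewer cells of a type and less RNA per cell cannot be told apart.

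All 9 genes varied over the 6 time points (moderated F, adjusted p from 1.31e-14 for Ncf4 to 9.40e-04 for Rac2). This is to be read against the whole array, where 55.5% of probe sets passed the same test. The span between a gene's lowest and highest mean was 1.18 for Ncf4, wider than in 97.5% of all probe sets, 0.95 for Ncf1 (95.5%) and 0.85 for Sod2 (93.7%). The spans of Cat and Sod1, 0.26 and 0.29, were ordinary, wider than in 50.2% and 57.2% of probe sets. At 1 h, 2 of the 9 genes were higher than at 0 h (Ncf4 and Cat) and 1 was lower (Cybb), where 21.7% of all probe sets were higher and 15.4% lower. At 2 h, 4 were higher (Cyba, Ncf1, Ncf4 and Sod2) and 1 was lower (Cybb), against 21.7% and 18.6% of all probe sets. At 3 h, 3 were higher (Ncf1, Ncf4 and Sod2), where 27.3% of all probe sets were higher and 19.2% lower. None was lower at 3 h by the moderated test or by a test that took the spread from those 2 time points alone (the 2-time-point test), although Cybb and Sod1 lay below 0 h at an unadjusted p under 0.05 (limma, unadjusted p = 0.0452 and 0.032). At 6 h, 4 were higher (Cyba, Ncf1, Ncf4 and Sod2) and 4 lower (Cybb, Sod1, Cat and Gpx1), against 22.5% and 19.3% of all probe sets. At 24 h, 5 were higher (Ncf1, Ncf4, Sod2, Cat and Gpx1) and 3 lower (Cybb, Rac2 and Sod1), against 17.4% and 13.9%. The median change of the 9 genes was between 0.02 and 0.15 at every time point. Of the probe sets called at 1 h, 58.6% were higher, a share that became 40.0% when each time point was centred on its median. At 3 h the share went from 58.7% to 47.2% and at 24 h from 55.6% to 37.3% with that centring. Centring within bins of mean signal, tried after the data were seen, gave 45.9% at 1 h, 42.9% at 2 h (53.9% without centring) and 44.6% at 3 h. The median change of all probe sets was itself between 0.04 and 0.07.

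**Figure D1:**
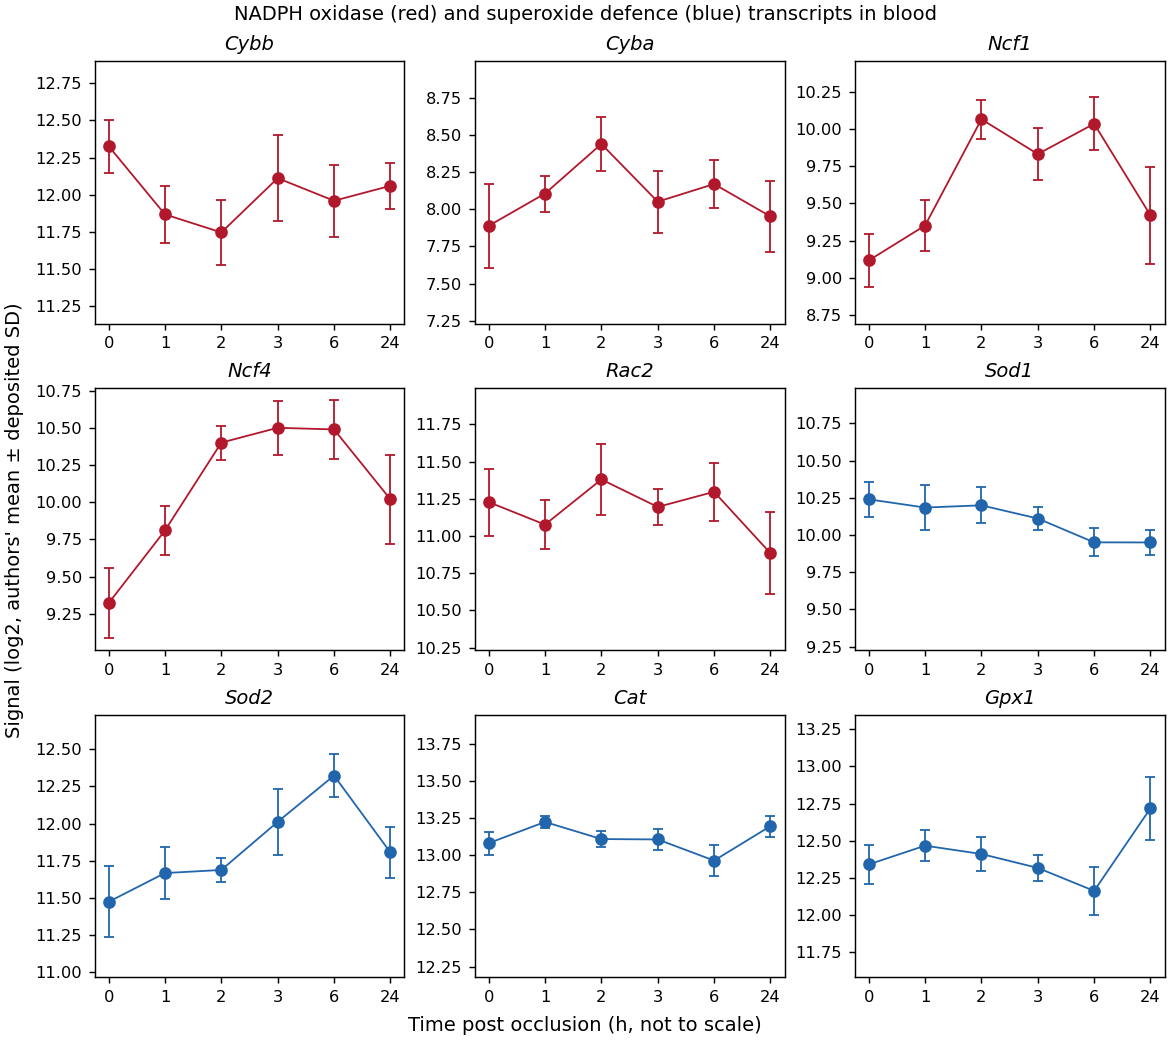
Authors' mean ± deposited SD of the log2 signal of each gene at the 6 time points (n = 8 arrays, 7 at 6 h), with the oxidase genes in red and the defence enzymes in blue. The y axes span the same number of log2 units in every panel, and the time axis is not to scale. Ncf1 and Ncf4 stood highest from 2 to 6 h, Cybb fell from 12.33 to 11.75 by 2 h, Sod2 rose to 12.32 at 6 h, and Cat stayed between 12.96 and 13.22.

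Cybb encodes gp91phox, the subunit that carries the electrons (probe set 10936899, chrX:15359404-15391317, plus strand). The mean log2 signals (± SD, n = 8, or 7 at 6 h) at 0, 1, 2, 3, 6 and 24 h were 12.33 ± 0.18, 11.87 ± 0.19, 11.75 ± 0.22, 12.11 ± 0.29, 11.96 ± 0.24 and 12.06 ± 0.16. It was highest before occlusion and lower at every later time, and was the only one of the 5 oxidase genes with a called fall at 1, 2 and 6 h. At 1 h it fell by 0.46 (SE 0.10, adjusted p = 5.89e-04, limma). At 2 h it fell by 0.58 (SE 0.10, adjusted p = 1.27e-05, limma), a 1.50-fold lower signal and the lowest point of its course. The level then rose by 0.37 between 2 and 3 h (adjusted p = 0.0366, limma), a step that the 2-time-point test did not call (adjusted p = 0.21). The fall against 0 h at 6 h, by 0.37, was called (adjusted p = 0.00538), and that at 3 h, by 0.22, was not (adjusted p = 0.0858), except with centring on the median (adjusted p = 0.048). At 24 h it was lower by a change of -0.27 (adjusted p = 0.0464), a call that neither the test without moderation (adjusted p = 0.0556) nor centring by signal (adjusted p = 0.0557) gave. In the order of its means, no neighbouring pair of time points differed by more than the larger of their SDs. By the moderated F, Cybb had an unadjusted p of 3.14e-05 and rank 5767. The paper's own F statistic for this probe set had a far larger p-value and a lower rank, outside its list of time-responsive genes. The calls for Cybb are to be read with that limit, and the cause of the difference was not tested.

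Cyba encodes p22phox, which stabilises gp91phox in the membrane (probe set 10811571, chr19:65959903-65967191, minus strand). In the same order of time points, Cyba had means ± SD of 7.89 ± 0.28, 8.11 ± 0.12, 8.44 ± 0.18, 8.05 ± 0.21, 8.17 ± 0.16 and 7.95 ± 0.24. It was highest at 2 h, the time at which Cybb was lowest, and the means at 0 and 24 h were the lowest. The rise at 2 h was 0.55 (SE 0.10, adjusted p = 1.52e-05, limma), 1.46-fold. Both steps around it were called, a rise of 0.33 from 1 to 2 h (adjusted p = 0.0263) and a fall from 2 to 3 h with a change of -0.39 (adjusted p = 0.0171). The 2-time-point test did not call the fall (adjusted p = 0.0723). The rise of 0.28 at 6 h (adjusted p = 0.026) was lost with centring on the median (adjusted p = 0.0515) and with the 2-time-point test (adjusted p = 0.0819). The changes at 1 and 3 h were called only with quantile normalisation (adjusted p = 0.0269 and 0.0349) and centring by signal (adjusted p = 0.0194 and 0.0449). At 24 h its change was 0.06, with a 95% interval from -0.14 to 0.27. The 2 genes of the membrane core thus had opposite courses, with a Pearson correlation of -0.88 over the 6 means, given as a description over 6 points that share the same rats.

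Ncf1 encodes p47phox, the organiser whose phosphorylation starts assembly of the enzyme (probe set 10757898, chr12:27505793-27514989, plus strand). The means ± SD of Ncf1 over the 6 time points were 9.12 ± 0.18, 9.35 ± 0.17, 10.07 ± 0.13, 9.83 ± 0.17, 10.04 ± 0.18 and 9.42 ± 0.33. The means from 2 to 6 h stood above all others by more than the larger SD, and among them the mean at 3 h lay 0.20 below that at 6 h, more than the larger SD of 0.18, although neither step around 3 h was called. Most of the rise came in 1 step, 0.71 between 1 and 2 h (SE 0.10, adjusted p = 1.61e-06, limma). Against 0 h, Ncf1 had risen by 0.95 at 2 h, which is 1.93-fold (adjusted p = 4.99e-11), by 0.72 after 3 h (adjusted p = 7.15e-08) and by 0.92 after 6 h (adjusted p = 3.04e-10). It fell from 6 to 24 h with a change of -0.62 (adjusted p = 7.75e-06). At 24 h it remained 0.30 above 0 h (adjusted p = 0.017, limma), which the 2-time-point test did not call (adjusted p = 0.113) and where its deposited SD was the widest of the 6 time points. The change of 0.23 at 1 h was not called (adjusted p = 0.0566), but passed when the dimmest 25% of probe sets were left out (adjusted p = 0.0485), with quantile normalisation of the means (adjusted p = 0.0141) and with centring by signal (adjusted p = 0.0186).

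Ncf4 encodes p40phox, which binds a membrane lipid of the phagosome, and it had the largest changes among the 9 genes (probe set 10897419, chr7:119473887-119490628, plus strand). For Ncf4 the 6 means ± SD were 9.32 ± 0.24, 9.81 ± 0.17, 10.40 ± 0.11, 10.50 ± 0.18, 10.49 ± 0.20 and 10.02 ± 0.30. It was already higher at 1 h, by 0.49 (SE 0.10, adjusted p = 1.64e-04, limma). At 2, 3 and 6 h it was 2.11-fold, 2.26-fold and 2.25-fold higher, with rises of 1.08, 1.18 and 1.17 (adjusted p = 1.94e-12, 1.27e-13 and 4.55e-13, limma). The means at 2, 3 and 6 h lay within 0.10 of each other, less than their SDs. The steps from 1 to 2 h (0.59, adjusted p = 5.43e-05) and from 6 to 24 h (-0.47, adjusted p = 6.12e-04) were called, and at 24 h the signal was still 1.62-fold above 0 h (0.70, SE 0.10, adjusted p = 7.21e-07). All of its called changes from 0 h stayed called under every alternative run.

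Rac2 encodes the GTPase of blood cells that switches the assembled oxidase on (probe set 10905316, chr7:119772957-119786147, minus strand). Over the 6 time points Rac2 had means ± SD of 11.23 ± 0.22, 11.08 ± 0.17, 11.38 ± 0.24, 11.20 ± 0.12, 11.30 ± 0.20 and 10.88 ± 0.27. No change from 0 h was called up to 6 h. The 95% intervals of those changes, at 1, 2, 3 and 6 h in turn, ran from -0.36 to 0.05, -0.05 to 0.36, -0.24 to 0.17 and -0.14 to 0.28. At 24 h it was lower, with a change of -0.34 (SE 0.10, adjusted p = 0.0085, limma), and the step from 6 to 24 h was -0.41 (adjusted p = 0.00297). The 2-time-point test did not call the 24 h change (adjusted p = 0.0572).

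**Figure D2:**
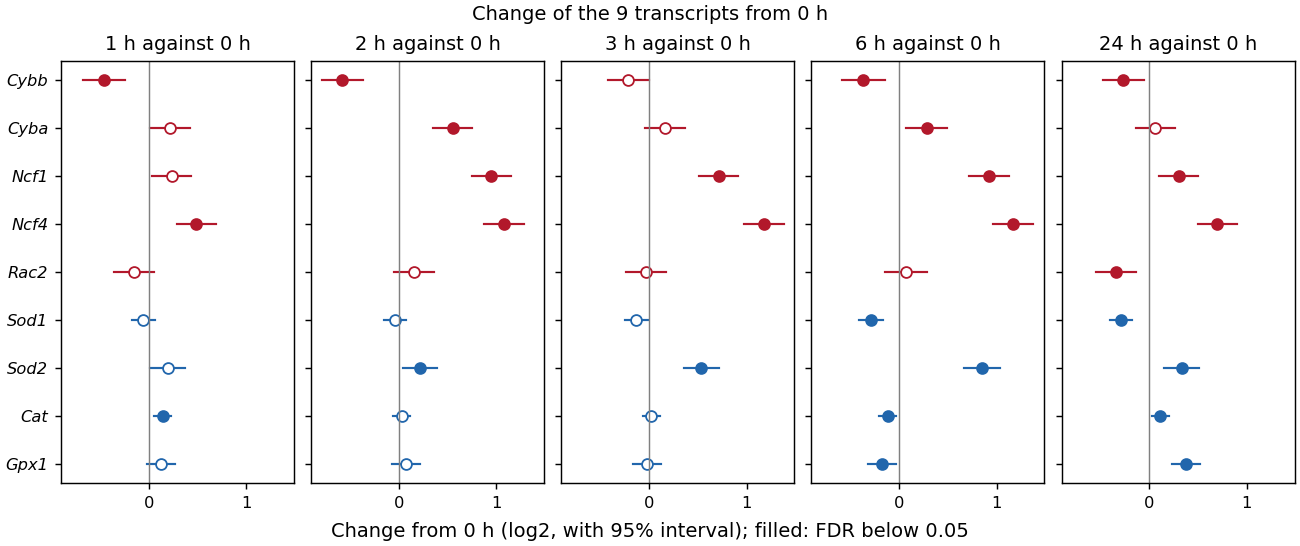
Change of each of the 9 genes from 0 h at each later time (log2), with the 95% interval from the moderated test. Filled points have an FDR below 0.05. The intervals of Ncf1 and Ncf4 lie above 0.5 at 2, 3 and 6 h, those of Cybb lie below 0 at every time, and Sod1 and Sod2 stand on opposite sides of 0 at 6 and 24 h.

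Among the defence enzymes, Sod2, the manganese superoxide dismutase of mitochondria, rose late (probe set 10717935, chr1:51827379-51834216, plus strand). From 0 to 24 h its 6 means ± SD were 11.47 ± 0.24, 11.67 ± 0.17, 11.69 ± 0.08, 12.01 ± 0.22, 12.32 ± 0.14 and 11.81 ± 0.17. The level climbed in 2 called steps, 0.32 from 2 to 3 h (adjusted p = 0.0257, limma) and 0.31 from 3 to 6 h (adjusted p = 0.035), and then fell by a change of -0.52 from 6 to 24 h (adjusted p = 2.18e-05). The 2-time-point test called neither rise (adjusted p = 0.117 and 0.16). Against 0 h the rise was 0.54 at 3 h (SE 0.09, adjusted p = 2.33e-06) and 0.85 at 6 h, 1.80-fold (SE 0.09, adjusted p = 1.10e-10), and 0.33 at 24 h (adjusted p = 0.00349). The rise of 0.21 at 2 h was close to the threshold (adjusted p = 0.0474) and was lost in 5 of 7 alternatives, with adjusted p from 0.05 to 0.113. Ncf1 and Ncf4 had made most of their rise by 2 h, at which Sod2 had covered 0.21 of the 0.85 that it gained by 6 h.

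Sod1, the copper and zinc dismutase of the cytosol, moved down instead (probe set 10753005, chr11:33982763-33988339, plus strand). The 6 means ± SD of Sod1 were 10.24 ± 0.12, 10.18 ± 0.15, 10.20 ± 0.12, 10.11 ± 0.08, 9.95 ± 0.09 and 9.95 ± 0.09. It was lower by 1.22-fold both at 6 h (-0.29, SE 0.06, adjusted p = 1.23e-04, limma) and at 24 h (-0.29, SE 0.06, adjusted p = 1.70e-04). The means at 6 and 24 h differed by less than 0.01, so it was the only gene of the 9 whose fall at 6 h was as deep at 24 h. No single step between neighbouring time points was called for Sod1. The change of -0.13 at 3 h (adjusted p = 0.0648) was called only with centring on the median (adjusted p = 0.0188).

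Cat encodes catalase, and its signal was the steadiest of the 9 genes (probe set 10838155, chr3:100021856-100053993, minus strand). The 6 means ± SD of Cat were 13.08 ± 0.08, 13.22 ± 0.04, 13.11 ± 0.06, 13.11 ± 0.07, 12.96 ± 0.10 and 13.19 ± 0.07. With this narrow spread, small changes passed the test, 0.14 at 1 h (SE 0.04, adjusted p = 0.0068, limma), -0.12 at 6 h (adjusted p = 0.0269) and 0.11 at 24 h (adjusted p = 0.0334). Centring on the median ended the calls at 1 h (adjusted p = 0.0844) and 24 h (adjusted p = 0.201). The call at 6 h was lost with quantile normalisation of the means (adjusted p = 0.788) and centring by signal (adjusted p = 0.773), which both took the change to -0.02, and with the 2-time-point test (adjusted p = 0.0772). Its signal lay close to the highest mean of any probe set on the array, 13.60, and the part of that upper limit in its flat course was not tested.

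Gpx1 encodes the main glutathione peroxidase of the cytosol, and its highest mean came at 24 h (probe set 10793103, chr8:116466150-116467212, plus strand). For Gpx1 the 6 means ± SD were 12.34 ± 0.13, 12.47 ± 0.10, 12.41 ± 0.11, 12.32 ± 0.09, 12.16 ± 0.16 and 12.72 ± 0.21. From its low point at 6 h it rose by 0.56 to 24 h (SE 0.07, adjusted p = 5.79e-08, limma), the largest step of any defence enzyme. At 24 h it stood 0.38 above 0 h, 1.30-fold (SE 0.07, adjusted p = 6.03e-05). The fall at 6 h, by 0.18 (adjusted p = 0.0459), was lost with quantile normalisation (adjusted p = 0.088), the 2-time-point test (adjusted p = 0.0897) and centring by signal (adjusted p = 0.44). The 24 h call was kept under every alternative run, but it rests on the samples taken by heart puncture after an anaesthetic overdose. Without 24 h, every gene but Rac2 still varied over the remaining 5 time points by the moderated F. Rac2 had no called change from 0 h up to 6 h, and its variation is not claimed without 24 h.

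Steps between neighbouring time points were fewer over the whole array, so their counts read differently from those against 0 h. From 1 to 2 h, 3 of the 9 genes changed (Cyba, Ncf1 and Ncf4, all upward), where 8.78% of all probe sets did. This interval also held the reperfusion and its anaesthesia, whose part in these steps was not tested. From 2 to 3 h, 3 changed (Cybb and Sod2 upward, Cyba downward), against 3.53%. From 3 to 6 h, 2 changed (Sod2 upward, Cat downward), against 4.78%. The 2-time-point test called none of the 9 genes in either of these intervals, with adjusted p from 0.0723 to 0.21 for the 5 steps named. From 6 to 24 h, 6 changed (Ncf1, Ncf4, Rac2 and Sod2 downward, Cat and Gpx1 upward), against 18.9%. The step of Rac2 from 1 to 2 h, 0.30, was just outside the threshold (adjusted p = 0.0506, limma) and was called in 4 of 7 alternatives, and that of Ncf1 from 2 to 3 h, -0.23, was further out (adjusted p = 0.212).

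Of 12 other oxidase subunits and homologues, listed by function, 11 were found on the array. Nox1 was not matched by symbol, and Cybc1, a chaperone of gp91phox, was matched through its RefSeq accession. Of the 11, 5 varied over time, where 55.5% of all probe sets did. Cybc1 was lower at 1, 3, 6 and 24 h, most at 24 h, with a change of -0.41 (adjusted p = 2.31e-04, limma). Hvcn1, a voltage-gated proton channel that lets the oxidase keep running and that B cells also express, had the deepest fall of this list, with changes of -1.62, -2.20, -2.06, -1.76 and -0.48 at 1, 2, 3, 6 and 24 h (adjusted p from 1.77e-18 to 0.00488). Rac1, Nox3, Nox4, Noxo1, Duoxa1 and Duoxa2 did not pass the F test (adjusted p from 0.057 for Noxo1 to 0.53 for Nox3). Noxa1 and Duox1, homologues of other tissues, rose by at most 0.29 and 0.27, at 6 h, and Duox2 by at most 0.25, at 3 h. Of the 11 genes, 1, 4, 4, 4 and 2 were higher at 1, 2, 3, 6 and 24 h, and 2, 1, 2, 2 and 2 lower. For these counts and those of the lists that follow, the shares of all probe sets at the 5 times were 21.7%, 21.7%, 27.3%, 22.5% and 17.4% higher and 15.4%, 18.6%, 19.2%, 19.3% and 13.9% lower. With centring within bins of mean signal the genes called higher became 0, 0, 0, 2 and 1, and dim probe sets in general lay higher after 0 h: at 3 h the median change was 0.10 in the dimmest 25% of probe sets and -0.07 in the brightest 25%.

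Among 17 genes that prime or activate the oxidase, 15 varied over time (55.5% of all probe sets did) and the directions were mixed, with 3, 6, 7, 6 and 4 higher and 6, 4, 7, 6 and 5 lower at 1, 2, 3, 6 and 24 h. Fpr1, the receptor for bacterial formyl peptides that triggers the oxidase in neutrophils, rose most, by 2.23, 2.80, 2.52, 2.47 and 1.24 at the 5 times (adjusted p from 2.38e-19 to 7.34e-08, limma). Itgam, the alpha chain of the integrin Mac-1, rose by 0.41, 0.94, 0.93, 1.12 and 0.38, and its partner chain Itgb2 was lower at 3 and 6 h, with changes of -0.30 and -0.23. Mapk14, which encodes the p38 kinase, rose by up to 0.86 at 3 h (adjusted p = 2.00e-10). Pik3cg, the catalytic subunit of a phosphoinositide kinase downstream of chemokine receptors, fell at 6 h with a change of -0.80 (adjusted p = 1.64e-10). Prkcb, a protein kinase C of leukocytes, fell at all 5 times, most at 6 h with a change of -0.73 (adjusted p = 3.64e-10). Rap1a and Prex1 did not pass the F test (adjusted p = 0.054 and 0.17).

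Of 12 other enzymes that remove superoxide or peroxide, 8 varied over time, against 55.5% of all probe sets, with 4, 3, 3, 3 and 1 higher and 1, 2, 1, 2 and 0 lower at 1, 2, 3, 6 and 24 h, where 17.4% to 27.3% of all probe sets were higher and 13.9% to 19.3% lower. Mpo, the peroxidase of neutrophil granules, is in this list and among the neutrophil markers, and was higher at 1, 3 and 6 h by 0.22, 0.17 and 0.16. The moderated test called none lower at 24 h, where 2 were lower at an unadjusted p under 0.05, the 2-time-point test called none, and both ways of centring called 2. Prdx5, a peroxiredoxin of mitochondria and peroxisomes, had the largest rise of any peroxide-removing enzyme listed: 0.50 and 1.08 at 2 and 3 h, and 1.97 by 6 h, or 3.92-fold (adjusted p = 8.07e-17, limma), and it was 0.23 above 0 h at 24 h, without a call (adjusted p = 0.181). That course peaked at 6 h, as that of Sod2 did. Prdx1, a cytosolic peroxiredoxin, went the other way, with changes of -0.60, -0.52 and -0.39 at 1, 2 and 3 h (adjusted p from 2.76e-04 to 0.012). Gpx3, a secreted peroxidase, was higher by 0.53 at 1 h and 0.39 at 24 h, Prdx6 by 0.36 at 2 h, and Gpx7 by up to 0.28 at 1 h. Sod3, Gpx8, Prdx3 and Prdx4 did not pass the F test (adjusted p from 0.17 to 0.57).

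The thioredoxin and glutathione systems supply the reducing power for these peroxidases, and 10 of 14 listed genes varied over time, against 55.5% of all probe sets. At 1, 2, 3, 6 and 24 h, 5, 6, 6, 5 and 5 were higher and 2, 4, 3, 2 and 1 lower, against 17.4% to 27.3% and 13.9% to 19.3% of all probe sets. Slc7a11, the cystine transporter that feeds glutathione synthesis, was higher by 1.19, 1.33, 1.28, 1.84 and 1.24 (adjusted p from 1.93e-14 to 7.96e-09, limma). Txnrd1, the cytosolic thioredoxin reductase, was lower at 1 h, with a change of -0.27, and then higher by 0.27, 0.93 and 1.11 at 2, 3 and 6 h, returning to 0.06 at 24 h. Glrx, a glutaredoxin, rose by up to 0.89 at 6 h. The 2 subunits of glutamate cysteine ligase, the first enzyme of glutathione synthesis, parted: the catalytic subunit Gclc was lower at all 5 times, most at 2 h with a change of -0.72 (adjusted p = 7.31e-09), and the modifier subunit Gclm was higher at 1, 3 and 24 h, most at 24 h by 0.74 (adjusted p = 4.83e-06). Txn1, Txn2, Gsr and Msra did not pass the F test (adjusted p from 0.055 to 0.38).

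Nrf2 (Nfe2l2) is the transcription factor that drives many antioxidant genes, and 9 of 11 genes listed with it varied over time, again against 55.5%. At 1, 2, 3, 6 and 24 h, 5, 4, 6, 5 and 5 were higher and 2, 2, 1, 2 and 3 lower, with the same shares of all probe sets beside them. Nfe2l2 itself was lower at 1 h (-0.31), higher at 2, 3 and 6 h (0.21, 0.62 and 0.64) and lower again at 24 h (-0.25), each with an adjusted p below the threshold (from 4.87e-12 to 0.00484, limma). Nqo1, a quinone reductase and a widely used Nrf2 target, rose by 0.33, 0.92, 0.92, 1.78 and 0.60. Mafg, a small Maf partner of Nrf2, was higher at all 5 times by 0.42 to 0.57. Sqstm1, an autophagy receptor that binds Keap1, was higher most at 24 h, by 0.46, and Hmox1, the inducible heme oxygenase, only at 6 h, by 0.44 (adjusted p = 0.00408). The ferritin genes Ftl1 and Fth1 did not pass the F test (adjusted p = 0.53 and 0.86), and their signals lay at the top of the array's range.

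**Figure D3:**
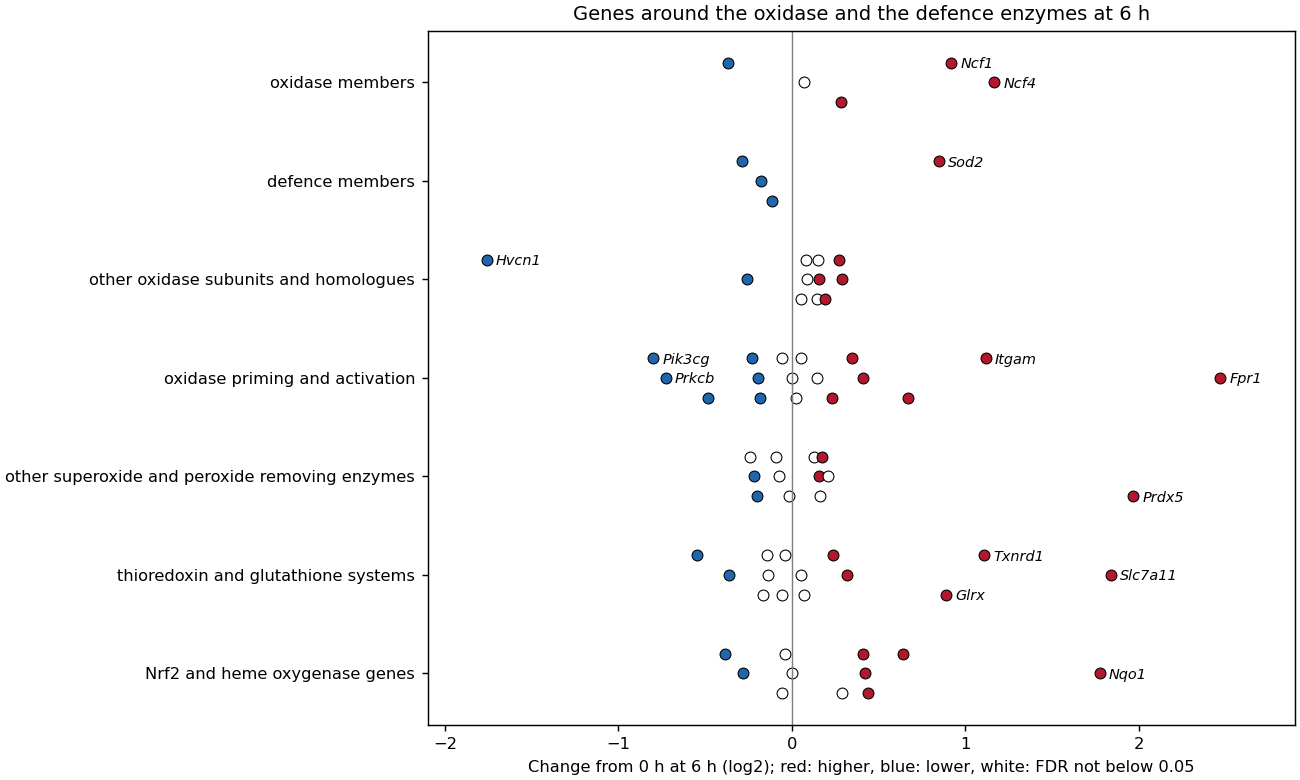
Change from 0 h at 6 h (log2) of every gene of the member lists and of the 5 surrounding lists, 1 point per gene. Red points were higher and blue points lower with an FDR below 0.05, and white points were not called. Names are given where the change exceeded 0.7 in size, with Fpr1 (2.47), Prdx5 (1.97), Slc7a11 (1.84) and Nqo1 (1.78) at the upper end and Hvcn1 (-1.76) at the lower.

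The blood cell markers moved at the same times. Of 13 neutrophil markers, 12, 11, 12, 12 and 7 were higher at 1, 2, 3, 6 and 24 h with median changes of 0.84, 1.48, 1.31, 1.59 and 0.59, where 17.4% to 27.3% of all probe sets were higher. None was lower at any time by limma, by the 2-time-point test or at an unadjusted p under 0.05. Of 8 B cell markers, 7, 8, 7, 7 and 6 were lower, with median changes of -1.50, -2.00, -2.07, -1.76 and -0.53, where 13.9% to 19.3% of all probe sets were lower. Of 8 T cell markers, 7 were lower at 1 h and all 8 afterwards. No B or T cell marker was higher at any time by any of these 3 counts. Of 7 NK cell markers, 2, 5, 5, 5 and 6 were lower at 1, 2, 3, 6 and 24 h, and 1 was higher at 1, 2 and 6 h. Of 7 platelet markers found, 4, 3, 2, 0 and 5 were higher, with median changes of 0.32, 0.21, 0.14, 0.07 and 0.30, the 0 at 6 h by all 3 counts. The 10 monocyte markers were split: 1, 3, 4, 4 and 0 were higher and 6, 3, 4, 4 and 3 lower, with Cd14 up by 1.84 at 3 h and Csf1r down at every time, most at 6 h with a change of -1.05. At 24 h no monocyte marker was higher by any of these 3 counts. The neutrophil markers include Fpr1, which is also in the list of activating genes, and Mpo, which is also in that of the removing enzymes. Among the neutrophil granule genes, Camp rose by 1.44, 2.11, 1.44 and 1.29 and Lcn2 by 1.41, 1.81, 1.24 and 2.81 at 1, 2, 3 and 6 h, neither with a call at 24 h. Elane was higher by 0.24 to 0.34 over the same 4 times. The means of Elane (6.75) and Mpo (6.32) lay near the median of all probe sets, 6.65. The part of the general upward shift of dim probe sets in their small rises was not tested. Ltf, low on the array (mean 5.88), was not called at any time. RMA gives no zeros, so no marker could be seen to be absent.

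Set beside these lists, the course of Ncf4 was closest to that of the neutrophil markers, and that of Ncf1 was about as close to the platelet as to the neutrophil markers. The root mean square difference between the 5 changes of a gene and the 5 medians of the neutrophil list was 0.31 for Ncf4, with the platelet list next at 0.80. For Ncf1 it was 0.56 from the neutrophil list and 0.57 from the platelet list, while the Pearson correlation over the 6 time points was 0.96 with the neutrophil list and -0.04 with the platelet list. For Cybb it was 1.60 from the neutrophil list and was smallest, at 0.27, from the eosinophil and basophil list and next, at 0.31, from the monocyte list, but the correlation of Cybb was 0.26 with the first of these lists, 0.60 with the monocyte list and 0.71 with the B cell list. The 8 eosinophil and basophil markers moved both ways, with 2 higher and 4 lower at 2 h and changes at 6 h from -1.78 (Il5ra) to 2.04 (Siglec8). For Cyba the difference was smallest from the platelet list (0.21) and the correlation was highest with the neutrophil list (0.77, against 0.22 with the platelet list). Size and shape of the course thus named different lists for Cybb and Cyba, and no nearest cell type is given for them. At 2 h Hvcn1 had a change of -2.20, and the B cell markers ran from -2.56 to -0.18, with Pax5 at the upper end. That range is so wide that lying within it does not single out B cells. Cybb, with -0.58, lay within it as well. These are descriptions over 5 changes that share the 0 h samples, and the part of the cell mixture in the changes of the oxidase genes was not tested.

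**Figure D4:**
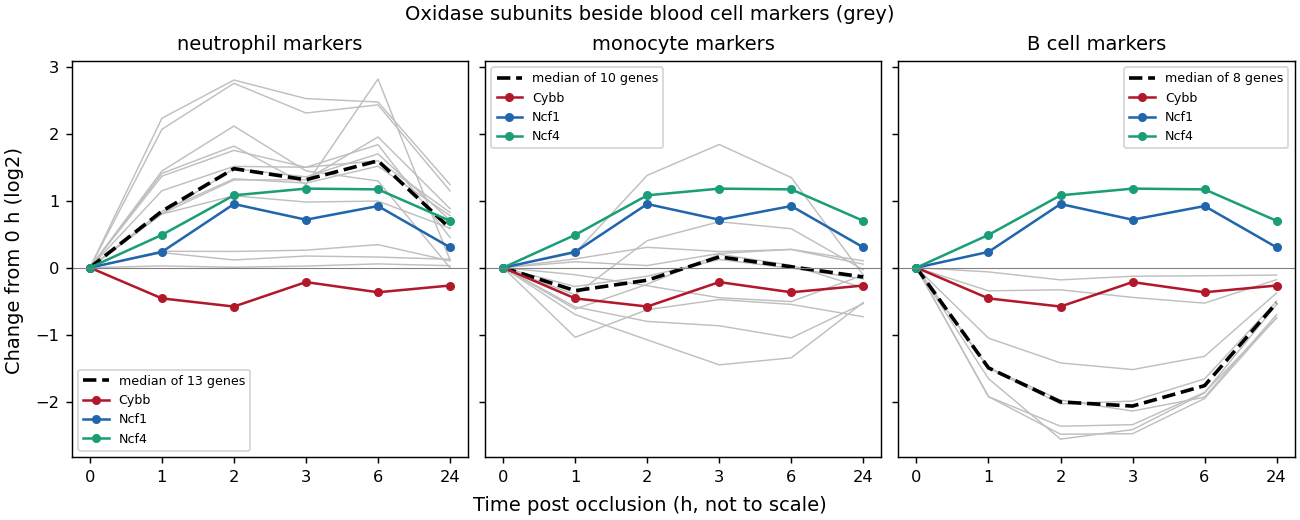
Change from 0 h (log2) of Cybb, Ncf1 and Ncf4 (coloured) over the 6 time points beside each gene of the neutrophil, monocyte and B cell marker lists (grey) and the list median (dashed). Time is not to scale. The cytosolic subunits Ncf1 and Ncf4 lie between 0.72 and 1.18 from 2 h to 6 h, Cybb lies below 0 throughout, and the median of the neutrophil markers reaches 1.59 at 6 h.

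The changes of Cat and Gpx1 were closest to those of the red cell markers. Of 9 erythroid markers found, 4 were higher at 1 h, none at 2 h, 2 at 3 h, none at 6 h and 4 at 24 h, and 2 were lower at 6 h. At 2 and 6 h no erythroid marker was higher, and at 1, 2, 3 and 24 h none was lower, by limma, by the 2-time-point test or at an unadjusted p under 0.05. Their median changes, 0.12, 0.03, 0.08, -0.11 and 0.17, differed from the changes of Cat with a root mean square of 0.03 and from those of Gpx1 with 0.11, the smallest over the 8 lists for both. The platelet list, with 5 of 7 markers higher at 24 h and none called at 6 h by limma, was next for both, at 0.17 for Cat and 0.18 for Gpx1. Over the 6 time points Cat and Gpx1 had Pearson correlations of 0.95 and 0.89 with the erythroid medians and of 0.81 and 0.74 with the platelet medians. The dismutases did not share this course: the correlation with the erythroid medians was 0.05 for Sod1 and -0.46 for Sod2. At 24 h Sod1 was lower, with a change of -0.29, where the erythroid median was 0.17. The erythroid markers were not uniform. Slc4a1, the anion exchanger of the red cell membrane, had changes of 0.34, 0.17, 0.13, -0.23 and 0.58, of which those at 1 and 24 h were called. The globin genes Hba1 and Hbb had no called change, with 0.02 at both 6 and 24 h for each, near the top of the array's range. Hba1 was measured by a probe set that also names Hba2. The part of red cell and platelet RNA in the changes of Cat and Gpx1 was not tested.

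**Figure D5:**
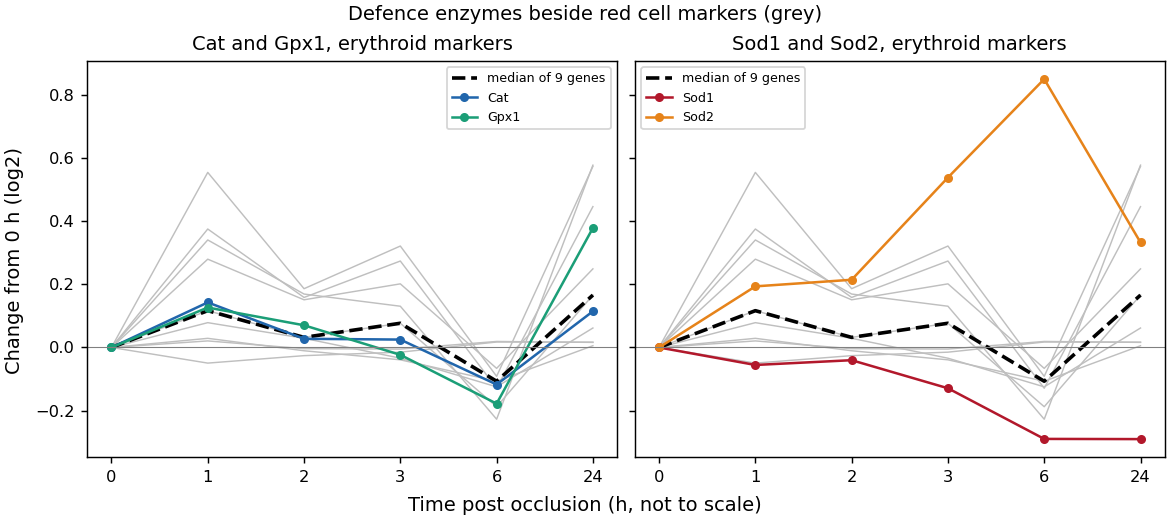
Change from 0 h (log2) of Cat and Gpx1 (left) and of Sod1 and Sod2 (right) over the 6 time points beside the 9 erythroid markers (grey) and their median (dashed). Time is not to scale. Cat and Gpx1 dip at 6 h, to -0.12 and -0.18, and are above 0 at 24 h, as the median is, while Sod2 reaches 0.85 at 6 h and Sod1 -0.29.

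The genes whose changes were nearest to those of each member were looked up among 19417 other symbols, each on its brightest probe set, over the 5 later time points. With so many candidates a near match is no sign of anything shared. Nearest to Ncf1 were Lst1 (root mean square difference 0.07), a transcript of leukocytes, and Anxa11 (0.09), and nearest to Ncf4 were Adam9 (0.09) and Slc22a15 (0.14). Cybb had Atg10 (0.03) and an unnamed predicted gene (0.05), and Cyba had Ccdc186 and Athl1 (both 0.05). Rac2 had Hcst and Gpi (both 0.05). Sod2 had Ginm1 (0.06) and Agfg1 (0.07), and Sod1 had Cmtr1 (0.03) and RGD1563300 (0.04). Cat had Adam10 (0.01) and Cmtm4 (0.02), and Gpx1 had Phka1 (0.03) and Hhex (0.04). Ncf1 and Ncf4 were themselves 0.32 apart, and their 6 means had a Pearson correlation of 0.94. Cat and Gpx1 were 0.12 apart with a correlation of 0.84. Sod1 and Sod2 were 0.67 apart with a correlation of -0.76. These correlations are over 6 means of the same rats and are given as descriptions.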

How the data were processed

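Blood cell RNA was amplified and hybridised by the authors to RaGene-1_0-st-v1 arrays, worked up in 6 randomised batches that are not given per array. Per the file headers, the deposited values are gene-level RMA signals on the log2 scale, annotated with release na36 on rat build rn5, and the authors averaged them per time point. The authors' deposited SDs were taken to be on the same log2 scale. The 47 columns of single arrays carry numbers that no sample label gives and were not used, nor were the authors' columns of fold changes, F, p and FDR. Mean, SD and number of arrays were turned into moderated t and F statistics with squeezeVar of limma 3.58.1 in R 4.3.3, with 1 variance per probe set pooled over the time points (41 residual and 5.71 prior degrees of freedom, no filter on low values), and adjusted by Benjamini-Hochberg over all probe sets, FDR 0.05. The calculation was tested on simulated data. It treats arrays as independent although the same rats were bled repeatedly. Per symbol the probe set of highest mean was used, and the text names up to 5 genes per list, those with the largest called changes, those without an F call, and the 2 nearest courses per gene. Markers and other genes named beside a result were chosen after their values were seen. The genes and lists were chosen with earlier results of these data known. Alternatives were another scaling, prior, filter or test. Another gene of the pathway is not reported here.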

Additional observations from a re-analysis of the deposited data

How the results depend on the processing

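No paired analysis was possible because no label ties the columns of single arrays to rats. Other probe sets could not be tried, since each of the 9 genes has 1. Array number and signal near the array's limits bound the precision.

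The cause of the shifts below was not tested. Of the 9 genes, 3 were called at 1 h and 5 with quantile normalisation or centring by signal bins, 3 at 3 h and 5 with centring on the median. The test on the 2 time points alone called 5 instead of 8 at 6 h and 0 instead of 3 from 2 to 3 h. From 3 to 6 h, 2 were called, but 1 with either centring or quantile normalisation and 0 with the test on the 2 time points. Sign changes touched only uncalled changes near 0. With bins these were Sod1 at 1 h (0.0077) and 2 h (0.0053) and from 1 to 2 h (-0.0025), Gpx1 at 3 h (0.0025), Cat from 2 to 3 h (0.020) and Ncf4 from 3 to 6 h (0.029). With quantile normalisation they were Sod1 at 2 h (0.0095) and from 6 to 24 h (0.024) and Ncf4 from 3 to 6 h (0.012). With centring on the median they were Cat at 2 h (-0.0013) and 3 h (-0.013). Other changes of the 9 genes from 0 h kept their sign, 19 losing and 9 gaining a call over all alternatives.

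With centring on the median, the other oxidase genes called higher were 0, 1, 1, 2 and 0 at 1, 2, 3, 6 and 24 h (1, 4, 4, 4 and 2 without), and with bins 0, 0, 0, 2 and 1, while those lower with bins were 1 instead of 2 at 1, 3 and 6 h. The prior with an intensity trend called 2 higher at 1 h. Activating genes called lower were 3 instead of 6 at 6 h with bins and 8 instead of 5 at 24 h with the median. Other removing enzymes called higher were 1 instead of 3 at 3 and 6 h with the median and 2 instead of 1 at 24 h with bins, and those lower were with bins 2, 2, 1 and 2 at 1, 3, 6 and 24 h (1, 1, 2 and 0 without) and with the median 2 at 24 h. With the median, thioredoxin and glutathione genes called higher at 24 h were 3 instead of 5, Nrf2 genes called higher were 3 instead of 5 at 1 and 24 h, and Nrf2 genes called lower at 3 h were 2 instead of 1, as with bins.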
